A study of Mus musculus with 20 samples.

Results

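The 8 genes described here are the metallothioneins Mt1 and Mt2 and 6 genes known to respond to glucocorticoid hormone: Fkbp5, Tsc22d3, Sgk1, Dusp1, Cebpd and Pdk4. They were taken by name, with earlier results of these data known. Each was measured in mouse heart ventricle by the 1 probe set linked to it on an Affymetrix array. They are 8 of the 8251 genes with such a probe set, and all 8 were among the 5658 genes bright enough to be tested. The labels name 5 arrays tTA +Doxy, 8 arrays tTA, 4 arrays FVBN +Doxy and 2 arrays FVBN control. All mice are described as FVBN, an inbred strain. tTA is the tetracycline transactivator, a bacterial repressor joined to a viral activation domain. It is read here as driven by the alpha MHC promoter that the labels list as a keyword, which is known to be active in heart muscle cells. Doxy is read as doxycycline, an antibiotic that takes tTA off its DNA site. The labels give no age, sex, dose, length of treatment or transgenic line. The study asked what tTA expression itself does in the heart, and it compared transgenic with wild-type mice. Nothing in the labels ties the arrays to separate animals, and the p-values therefore reflect the spread between arrays, which may be partly technical. Stretches of array numbers never mix genotype or Doxy, so a cohort of animals or arrays cannot be told apart from the groups.

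Metallothioneins are small cysteine-rich proteins that bind zinc and copper and take up oxidants. Their genes are switched on by zinc through the factor MTF-1, and also by glucocorticoids. Glucocorticoids act through a receptor that chaperones hold in the cytoplasm until hormone binds, after which it moves to the nucleus and binds paired copies of a short DNA element. In the heart its targets include feedback regulators of the receptor, brakes on stress kinases and enzymes that turn the muscle from glucose to fatty acids.

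The windows around the starts of the genes are shown for Mt1 and Dusp1, which carry the called differences between the groups, for Mt2, the neighbour of Mt1, and for Sgk1, which holds the full hormone element. Each window runs over 300 bases, 250 before the start and 50 after it, and comes from RefSeq on GRCm38.p6. Windows were found for 7 of the 8 genes, and Cebpd was not matched. Mt1 is on the plus strand at chr8:94178839-94179138 and Mt2 on the plus strand at chr8:94172368-94172667. The pair are neighbours between Mt3 and Nup93. Dusp1 is on the minus strand at chr17:26508423-26508722. Sgk1 has 6 windows, and the one printed is on the plus strand at chr10:21993640-21993939. Capitals mark the core of the metal response element in Mt1 and Mt2 (TGCGCNC or TGCACNC), the cyclic AMP response element TGACGTCA in Dusp1, and the full glucocorticoid element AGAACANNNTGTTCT in Sgk1, each searched on both strands.
Mt1: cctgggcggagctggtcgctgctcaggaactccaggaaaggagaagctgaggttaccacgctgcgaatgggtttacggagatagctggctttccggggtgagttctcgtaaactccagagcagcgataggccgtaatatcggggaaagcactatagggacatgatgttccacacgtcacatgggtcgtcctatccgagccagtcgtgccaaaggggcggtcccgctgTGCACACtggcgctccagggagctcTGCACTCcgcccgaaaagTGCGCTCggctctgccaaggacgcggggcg
Mt2: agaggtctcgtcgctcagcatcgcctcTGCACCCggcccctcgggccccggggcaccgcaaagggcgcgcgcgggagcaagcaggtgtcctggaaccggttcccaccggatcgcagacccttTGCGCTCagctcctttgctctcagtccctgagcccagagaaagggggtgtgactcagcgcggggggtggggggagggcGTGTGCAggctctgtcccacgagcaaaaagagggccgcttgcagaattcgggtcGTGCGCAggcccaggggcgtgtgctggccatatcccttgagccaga
Dusp1: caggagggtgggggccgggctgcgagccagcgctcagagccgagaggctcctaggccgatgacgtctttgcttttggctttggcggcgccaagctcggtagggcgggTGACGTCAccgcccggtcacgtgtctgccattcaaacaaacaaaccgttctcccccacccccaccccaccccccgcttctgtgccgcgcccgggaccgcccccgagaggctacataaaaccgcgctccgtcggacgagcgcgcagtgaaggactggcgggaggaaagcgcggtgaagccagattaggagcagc
Sgk1: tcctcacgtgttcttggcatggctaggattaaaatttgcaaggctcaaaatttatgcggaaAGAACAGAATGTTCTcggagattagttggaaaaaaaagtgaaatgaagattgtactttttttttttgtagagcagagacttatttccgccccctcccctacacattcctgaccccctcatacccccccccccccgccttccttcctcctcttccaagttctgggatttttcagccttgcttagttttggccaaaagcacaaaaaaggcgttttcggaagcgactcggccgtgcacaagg
The Mt1 window held 3 metal response cores and the Mt2 window 4. At least 1 core was found in 25.7% of all 32851 windows, and the share with as many as Mt1 or Mt2 was not counted. The Mt1 cores began 23 bases before the start and 2 and 20 bases after it. Those of Mt2 began 223, 128 and 50 bases before the start and 4 bases after it. The Dusp1 window held 1 cyclic AMP response element, 143 bases before the start, which 1.79% of windows share, and also 1 metal response core, not in capitals. The full glucocorticoid element lay 189 bases before the printed Sgk1 start and was present in 3 of all windows, or 0.00913%. Its short unit AGAACA was found in 19% of windows. That unit occurred 3 times in the printed Sgk1 window, 2 of them within the full element, once in each of 2 other Sgk1 windows and once in 1 of the 3 Tsc22d3 windows. A further Sgk1 window held 1 metal response core. The Fkbp5 and Pdk4 windows held none of the 4 motifs. A match is only a run of letters, and binding was not measured.

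Mt1 was lower in tTA hearts than in FVBN control hearts. Its log2 level ran over the 8 tTA arrays with a lowest value of 9.43, a median of 9.65 and a highest value of 9.73, against 10.03 and 10.03 in the FVBN control arrays. All 8 tTA arrays lay below both FVBN control arrays. The fall was 0.40 ± 0.07 on the log2 scale (SE), a fold of 1.32, with a limma adjusted p of 0.00224, where a change is called at an adjusted p below 0.05. With only 2 FVBN control arrays, the call was lost without either one: the difference stayed at -0.40, with an adjusted p of 0.0606 without array 8177 and 0.0594 without array 8182.

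In tTA +Doxy hearts the Mt1 level was 9.88, 9.94, 9.90, 9.88 and 9.87, above each of the 8 tTA arrays. The groups did not overlap. The difference, tTA +Doxy minus tTA, was 0.26 ± 0.05 on the log2 scale, a fold of 1.199, with an unadjusted p of 4.39e-05 and a limma adjusted p of 0.0545, so it missed the threshold by a narrow margin. It passed with median scaling of the arrays (0.33, adjusted p = 0.0135) and with the deposited values as they stand (0.32, adjusted p = 0.0119). Over all 30 alternatives it passed in 10, and the adjusted p ran up to 0.24. The 4 FVBN +Doxy arrays had 9.997, 10.10, 10.11 and 9.80, against 10.03 and 10.03 in FVBN control, and straddled them. That difference was -0.03 ± 0.08 (adjusted p = 0.894).

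Between tTA +Doxy and FVBN +Doxy, Mt1 differed by -0.11 ± 0.06 (adjusted p = 0.321), and array 8341 of FVBN +Doxy lay below all 5 tTA +Doxy arrays. The difference between the Doxy effects, tTA minus FVBN, was 0.29 ± 0.09 with an unadjusted p of 0.00516 and a limma adjusted p of 0.242. Group means of Mt1, highest first, were 10.03 ± 0.0049 in FVBN control, 10.001 ± 0.14 in FVBN +Doxy, 9.89 ± 0.03 in tTA +Doxy and 9.63 ± 0.10 in tTA (SD). Neighbours in that order overlapped, save tTA +Doxy and tTA. In whole tissue, fewer cells of a type and less RNA per cell cannot be told apart.

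Mt2, the neighbouring metallothionein gene, was not called in any comparison. The 5 tTA +Doxy arrays had log2 levels of 7.60, 7.98, 7.65, 7.54 and 7.68. The tTA arrays had a lowest level of 7.31, a median of 7.56 and a highest of 7.70, the FVBN +Doxy arrays 7.90, 7.74, 7.81 and 7.50, and the FVBN control arrays 7.61 and 7.82. All 4 groups overlapped. Against FVBN control, tTA differed by -0.17 ± 0.11 (limma adjusted p = 0.454), with a 95% interval of -0.40 to 0.06 that reaches the size of the Mt1 difference. Against tTA, tTA +Doxy differed by 0.15 ± 0.08 (adjusted p = 0.695), with 4 of 5 arrays above the tTA mean. In the 2 comparisons where Mt1 differed most, the Mt2 difference had the same sign as that of Mt1, and within groups the pair correlated weakly, as given further on.

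**Figure D1:**
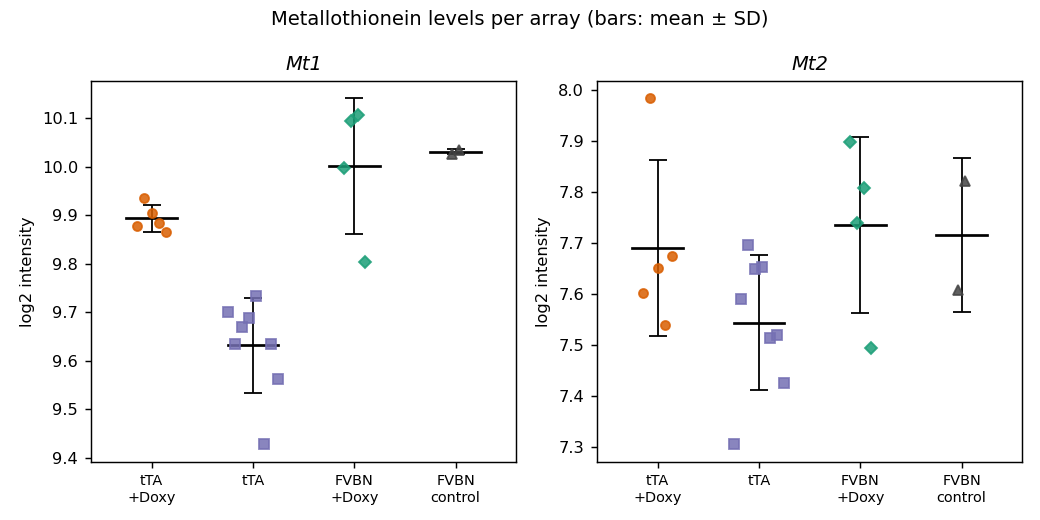
Log2 level of Mt1 and Mt2 on each array (points) by group, with the group mean and SD as lines. The 8 Mt1 points of tTA lie below those of the other 3 groups, while the Mt2 groups overlap.

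Dusp1, a phosphatase that switches off stress-activated MAP kinases and is induced by both glucocorticoids and growth signals, was lower in tTA +Doxy than in FVBN +Doxy hearts. The tTA +Doxy arrays had log2 levels of 8.65, 8.63, 8.59, 8.64 and 8.56, against 8.88, 8.86, 8.92 and 9.05 in FVBN +Doxy. The groups did not overlap. The fall was 0.31 ± 0.06, a fold of 1.24, with a limma adjusted p of 0.00355. It was called under all 30 alternatives, with adjusted p of at most 0.0232. Some of these left out arrays of other groups, which keeps the difference as it is.

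Without Doxy the Dusp1 difference had the same sign. The tTA arrays had a lowest level of 8.31, a median of 8.56 and a highest of 8.73, against 8.73 and 8.79 in FVBN control. All 8 lay below both FVBN control arrays, the nearest pair being equal to 2 decimals. The difference was -0.21 ± 0.07 with an unadjusted p of 0.00671 and a limma adjusted p of 0.113. It passed in 1 of 30 alternatives, over which the adjusted p ran up to 0.593. That 1 left out tTA array 7288 (-0.24, adjusted p = 0.0484), the tTA array with the highest Dusp1 level. Put together, all 13 arrays labelled tTA or tTA +Doxy lay below all 6 FVBN arrays. The array without a group, described at the end, was not counted. Dusp1 was the 1 gene of the 8 with that separation, which 1.34% of tested probe sets showed in either direction and 0.564% in the direction of Dusp1. That count was added after the values had been seen.

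No Doxy difference in Dusp1 was called. FVBN +Doxy minus FVBN control was 0.17 ± 0.08, with no overlap, an unadjusted p of 0.044 and a limma adjusted p of 0.411. In tTA mice the Doxy difference was 0.07 ± 0.05 (adjusted p = 0.787). The interaction was -0.10 ± 0.09 (adjusted p = 0.635), with a 95% interval of -0.29 to 0.10, so the genotype difference was not shown to depend on Doxy.

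**Figure D2:**
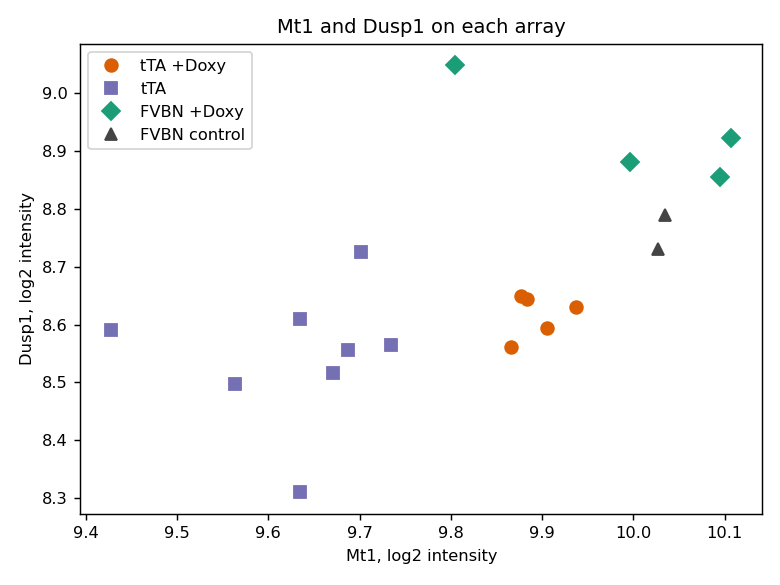
Log2 level of Dusp1 against that of Mt1, with 1 point for each of the 19 arrays, coloured by group. On the Dusp1 axis the 13 arrays with tTA lie below the 6 FVBN arrays, and on the Mt1 axis the 8 tTA arrays without Doxy stand lowest.

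Fkbp5, a co-chaperone that lowers the receptor's affinity for hormone and is one of its most sensitive targets, was highest in tTA +Doxy hearts. Its log2 levels there were 6.12, 6.18, 6.10, 6.05 and 6.24. The tTA arrays had a lowest level of 5.88, a median of 6.001 and a highest of 6.04, the FVBN +Doxy arrays 5.89, 6.05, 6.15 and 5.999, and the FVBN control arrays 5.93 and 5.88. All 5 tTA +Doxy arrays lay above all 8 tTA arrays, but not above all FVBN +Doxy arrays. Against tTA the difference was 0.16 ± 0.04, a fold of 1.12, with an unadjusted p of 0.0015 and a limma adjusted p of 0.267. FVBN +Doxy minus FVBN control was 0.12 ± 0.07 (adjusted p = 0.48), and the interaction was 0.04 ± 0.08 (adjusted p = 0.821). The genotype differences were 0.11 ± 0.05 with Doxy (adjusted p = 0.206) and 0.07 ± 0.06 without it (adjusted p = 0.591). Fkbp5 was the dimmest of the 8 genes, at its lowest 4.09 times the floor set on intensities.

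Tsc22d3 encodes GILZ, a leucine zipper protein that carries part of the anti-inflammatory action of glucocorticoids. Its log2 levels were 6.50, 6.60, 6.52, 6.50 and 6.55 in tTA +Doxy, with a lowest of 6.52, a median of 6.63 and a highest of 6.69 in tTA. The FVBN +Doxy arrays had 6.69, 6.53, 6.50 and 6.71, and the FVBN control arrays 6.49 and 6.64. Every group overlapped every other. The largest of its 4 differences between groups was -0.09 ± 0.04 for tTA +Doxy against tTA (limma adjusted p = 0.683), opposite in sign to that of Fkbp5 in the same arrays.

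Sgk1, a kinase that controls sodium channels and is induced by glucocorticoids and mineralocorticoids, was close to level across the groups. The tTA +Doxy arrays had 6.73, 6.99, 6.68, 6.99 and 6.98, and the tTA arrays a lowest of 6.56, a median of 6.82 and a highest of 7.001. FVBN +Doxy arrays had 6.66, 7.08, 6.95 and 6.83, and FVBN control arrays 6.81 and 6.83. Its 4 differences between groups ran over -0.02 to 0.07 on the log2 scale. For tTA against FVBN control the 95% interval was -0.25 to 0.21 (limma adjusted p = 0.952).

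Cebpd, a transcription factor induced early by glucocorticoids and cytokines, varied widely among the arrays of every group but FVBN control. Its log2 levels were 7.005, 7.17, 6.50, 6.86 and 6.58 in tTA +Doxy, and had a lowest of 6.20, a median of 6.85 and a highest of 7.10 in tTA. They were 6.87, 7.34, 6.93 and 6.80 in FVBN +Doxy, against 6.70 and 6.54 in FVBN control. The FVBN +Doxy arrays lay above both FVBN control arrays by 0.36 ± 0.23 on average, with a limma adjusted p of 0.53 and a 95% interval of -0.12 to 0.85.

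Pdk4, the kinase that blocks pyruvate dehydrogenase and so turns heart muscle toward fatty acids, was the most variable of the 8. Its levels were 9.09, 9.60, 9.77, 9.32 and 10.18 in tTA +Doxy, with a lowest of 8.64, a median of 9.42 and a highest of 10.18 in tTA. They were 9.09, 9.69, 9.60 and 9.004 in FVBN +Doxy, against 8.98 and 8.57 in FVBN control. The FVBN control arrays were the low end, and 7 of 8 tTA arrays lay above their mean. For tTA against FVBN control the difference was 0.69 ± 0.33, with an unadjusted p of 0.0506 and a limma adjusted p of 0.302. FVBN +Doxy lay above FVBN control with no overlap, by 0.57 ± 0.36 (adjusted p = 0.53). The SD within groups was 0.42 in tTA +Doxy, 0.47 in tTA, 0.35 in FVBN +Doxy and 0.29 in FVBN control. For comparison, Dusp1 had SDs of 0.04, 0.12, 0.09 and 0.04 in the same groups.

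**Figure D3:**
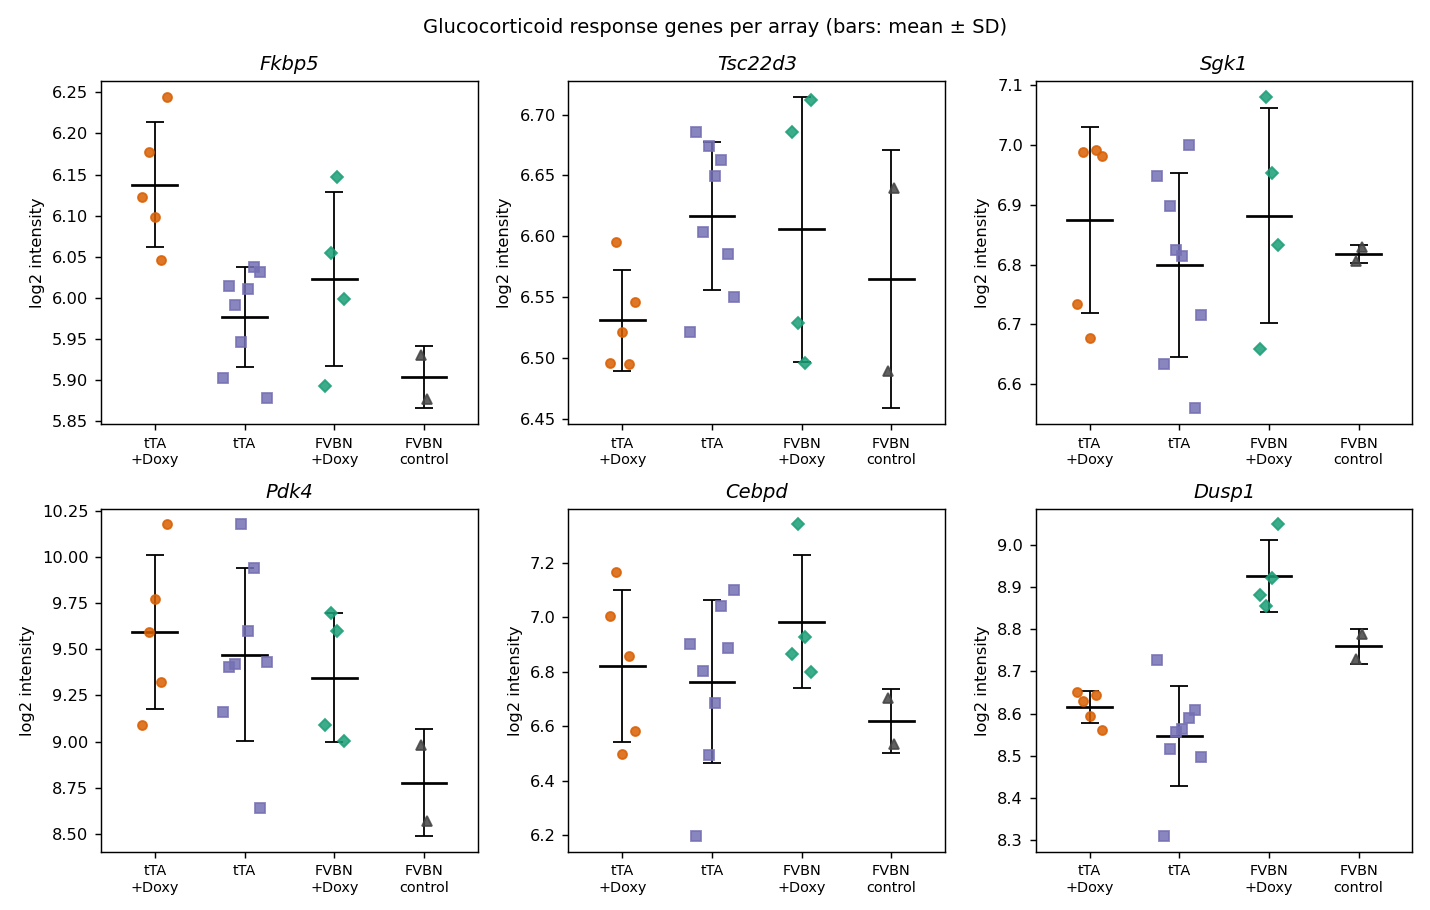
Log2 level of Fkbp5, Tsc22d3, Sgk1, Pdk4, Cebpd and Dusp1 on each array (points) by group, with the group mean and SD as lines. Pdk4 and Cebpd spread widely within groups, and Dusp1 is lower in both groups with tTA than in both FVBN groups.

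The calls among the 8 genes are given here beside those over all tested probe sets. The 8 were chosen with earlier results of these data known, so an excess over those shares is a description and was not tested. For tTA against FVBN control 1 of 8 was called, Mt1, where 2.82% of all tested probe sets were called. In that comparison 2 of 8, Mt1 and Dusp1, had an unadjusted p below 0.05, against 16.6% of probe sets. The same 2 did not overlap between the groups, against 12.7%, and the median log2 difference was 0.02 over the 8 genes and 0.01 over all probe sets. For tTA +Doxy against FVBN +Doxy 1 of 8 was called, Dusp1, against 5.89% of probe sets, and 2 of 8, Dusp1 and Fkbp5, had an unadjusted p below 0.05, against 21.1%. Dusp1 was also the 1 gene without overlap, against 9.71%, and the medians were -0.06 over the 8 genes and -0.01 over all. For FVBN +Doxy against FVBN control none was called, against 0.0403% of probe sets, and 1 of 8 had an unadjusted p below 0.05, against 11.8%. Dusp1, Cebpd and Pdk4 did not overlap there, 3 of 8 against 23.5% of probe sets, a background that the 2 control arrays make high. For tTA +Doxy against tTA none was called, against 0.0671%, and 2 of 8 had an unadjusted p below 0.05, against 7.7%. Those 2, Mt1 and Fkbp5, were also the 2 whose groups did not overlap, which held for 0.389% of probe sets in either direction and for 0.201% in theirs, higher in tTA +Doxy. The interaction gave no call among the 8, against 0.0134%, and 1 unadjusted p below 0.05, that of Mt1, against 14.5%. These comparisons share groups: each group enters both a genotype and a Doxy comparison, so they are not independent of each other.

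**Figure D4:**
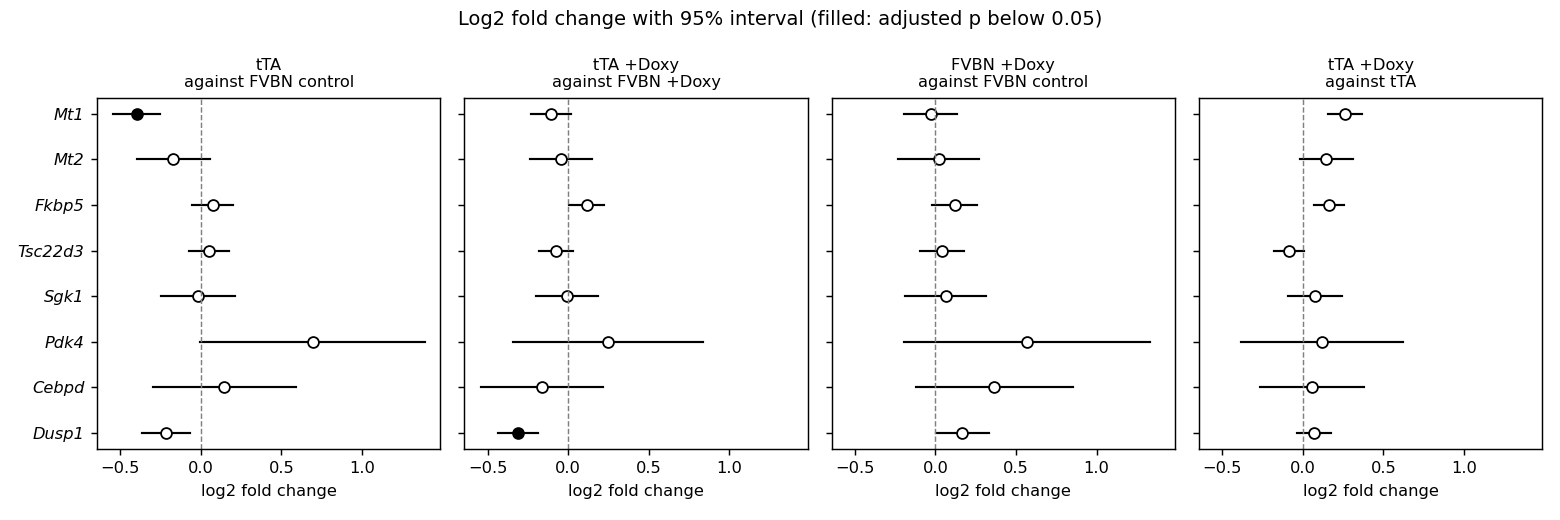
Log2 fold change of each of the 8 genes in the 4 comparisons between groups, with 95% confidence intervals from limma. The 2 filled circles, Mt1 in tTA against FVBN control and Dusp1 in tTA +Doxy against FVBN +Doxy, mark an adjusted p below 0.05, and the intervals of Pdk4 and Cebpd are the widest.

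Of 41 further genes known to be induced by glucocorticoids, 28 were tested. Like the lists that follow, this one was chosen with earlier results of these data known. Each listed gene counts by its brightest probe set, while the shares beside it are over all tested probe sets. An excess over those shares is a description and was not tested. For tTA against FVBN control limma called none of the 28. In that comparison 7 had an unadjusted p below 0.05, a share of 25% where all probe sets had 16.6%. Their median log2 difference was -0.05, against 0.01 over all probe sets. Between the Doxy-treated genotypes 1 of the 28 was called, or 3.57% where all probe sets had 5.89%, and none rose. The called gene was Ptgds, a prostaglandin D synthase, at -0.77 ± 0.18 (limma adjusted p = 0.0197) in tTA +Doxy against FVBN +Doxy. In that comparison 10 of the 28 had an unadjusted p below 0.05, or 35.7% against 21.1% of all probe sets, and in the interaction 8 of the 28, or 28.6% against 14.5%. Per1, a clock gene that the receptor also induces, differed by 0.12 ± 0.08 in tTA against FVBN control (adjusted p = 0.459). The receptor gene Nr3c1 was too dim to test, and Hsd11b1, which regenerates active hormone in tissue, was not called (-0.03 ± 0.06 without Doxy and -0.06 ± 0.05 with it, adjusted p = 0.853 and 0.511).

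Among 11 tested receptor, hormone-activation and chaperone genes, 2 rose in tTA +Doxy against FVBN +Doxy and none fell, or 18.2% called where all probe sets had 5.89%. An unadjusted p below 0.05 was reached by 5 of the 11, or 45.5% against 21.1%. As for the list above, these shares are a description and the excess was not tested. The 2 that rose were Stip1, an adaptor that hands client proteins to HSP90 (0.39 ± 0.07, adjusted p = 0.00225), and Ppid, a cyclophilin that binds HSP90 as Fkbp5 does (0.32 ± 0.08, adjusted p = 0.0177). Hsp90aa1, the inducible HSP90, was at 0.40 ± 0.14 there (adjusted p = 0.11) and above the FVBN +Doxy mean on 5 of 5 arrays. Fkbp4, the co-chaperone that opposes Fkbp5, was at -0.06 ± 0.08 (adjusted p = 0.684). None of the 11 was called in the other comparisons, where at most 2 had an unadjusted p below 0.05.

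Among 17 tested genes of metal transport, zinc and oxidant defence, 1 fell in tTA against FVBN control, or 5.88% called where all probe sets had 2.82%. The gene was Txnrd1, thioredoxin reductase, at -0.30 ± 0.07 (limma adjusted p = 0.0193), with the same sign as Mt1. An unadjusted p below 0.05 was reached there by 6 of the 17, or 35.3% against 16.6%. In the interaction it was reached by 5, or 29.4% against 14.5%. Mtf1, which encodes the factor that binds the metal response element, was at 0.02 ± 0.06 (adjusted p = 0.907), and Hmox1, an oxidant-induced haem oxygenase, at 0.01 ± 0.07 (adjusted p = 0.974). The zinc exporter gene Slc30a1, another MTF-1 target, was too dim to test. In tTA +Doxy against FVBN +Doxy 1 of the 17 rose, Slc39a7, a zinc channel of the endoplasmic reticulum, at 0.26 ± 0.06 (adjusted p = 0.00822). That is 5.88% called, where all probe sets had 5.89%. With Doxy 3 of the 17 had an unadjusted p below 0.05, or 17.6% against 21.1%.

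Dusp1 is also an immediate early gene, and 18 others of that class were tested. In tTA against FVBN control 1 fell, Ier3, a short-lived stress response protein, at -0.66 ± 0.09 (limma adjusted p = 0.000276). In tTA +Doxy against FVBN +Doxy 1 fell, Plk2, a kinase induced by stress, at -0.22 ± 0.05 (adjusted p = 0.0119). Each is 5.56% of the 18, where 2.82% of all probe sets were called without Doxy and 5.89% with it. Fos was too dim to test. Of 10 tested clock genes, Bhlhe40 fell in tTA against FVBN control (-0.41 ± 0.10, adjusted p = 0.0263) and Nr1d1 fell in tTA +Doxy against FVBN +Doxy (-0.34 ± 0.08, adjusted p = 0.0172). Each is 10% of that list, against the same 2.82% and 5.89%. An unadjusted limma p below 0.05 was reached by 4 of the 10, or 40%, in 3 comparisons. These were tTA against FVBN control (16.6% of all probe sets), FVBN +Doxy against FVBN control (11.8%) and the interaction (14.5%). In tTA +Doxy against FVBN +Doxy it was reached by 20% against 21.1%, and in tTA +Doxy against tTA by 10% against 7.7%. None of the 14 tested genes of fasting and fatty acid use, which share regulators with Pdk4, was called in any comparison, and 5 of them, or 35.7%, had an unadjusted p below 0.05 in tTA against FVBN control, where all probe sets had 16.6%. Nor was any of the 14 tested cytokine and acute phase genes called, with at most 1 at an unadjusted p below 0.05. In both Doxy comparisons and the interaction none of the genes of these lists was called.

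Some markers of other cells differed between the genotypes. Of 8 tested markers of smooth muscle or pericytes, 2 fell in tTA against FVBN control (Acta2 and Abcc9) and none rose. That is 25% called where all probe sets had 2.82%. The log2 of the summed intensities of the 8 ran over 9.90 to 10.16 in tTA, against 10.40 to 10.47 in FVBN control. The brightest markers weigh most in such a sum, and the sums below are of the same kind. Of 8 endothelial markers 1 fell (Emcn), or 12.5% against the same 2.82%, with sums of 10.24 to 10.33 in tTA, against 10.39 to 10.44 in FVBN control. Blood sums, over 3 tested genes, were 11.3 to 12.2 in tTA, against 12.2 to 12.3 in FVBN control. Of 10 fibroblast markers none was called there, with sums of 11.75 to 12.22 in tTA, against 11.98 to 11.995 in FVBN control, nor any of the 3 blood genes. The 9 macrophage markers, with sums of 10.17 to 10.44 in tTA, against 10.35 to 10.44 in FVBN control, gave no call. Neither did the 4 adipocyte markers, with sums of 9.005 to 9.22 in tTA, against 8.98 to 9.07 in FVBN control, or the 9 cardiac muscle markers. The cardiac muscle sums were 14.87 to 15.04 in tTA, against 14.93 to 15.06 in FVBN control. Of the 10 listed cardiac muscle markers, 9 had a probe set linked to that gene alone, and all 9 were tested. The part of these markers in the fall of Mt1 was not tested. Beside the fall of Dusp1 in tTA +Doxy, the smooth muscle and pericyte sums were 9.97 to 10.27, against 10.20 to 10.37 in FVBN +Doxy. There 1 marker was higher (Smtn) and 1 lower (Acta2), or 25% called where all probe sets had 5.89%. Blood sums were 11.3 to 12.4 in tTA +Doxy, against 12.3 to 12.5 in FVBN +Doxy. Fibroblast sums were 11.81 to 11.94 in tTA +Doxy, against 11.93 to 12.04 in FVBN +Doxy, with Fbln1 lower, or 10% called against 5.89%. Endothelial sums were 10.18 to 10.31 in tTA +Doxy, against 10.26 to 10.38 in FVBN +Doxy. Adipocyte sums were 9.12 to 9.23 in tTA +Doxy, against 9.07 to 9.14 in FVBN +Doxy, with Cidea higher, or 25% called against 5.89%. Macrophage sums were 10.28 to 10.58 in tTA +Doxy, against 10.48 to 10.62 in FVBN +Doxy, with none of the 9 called. Their part in the fall of Dusp1 was not tested. For tTA +Doxy against tTA no marker was called. An unadjusted limma p below 0.05 was reached there by 4 of the 9 macrophage and leukocyte markers, or 44.4% against 7.7% of all probe sets. It was reached by 2 of the 8 smooth muscle and pericyte markers, and by 1 each of the adipocyte, fibroblast and endothelial markers. No blood or cardiac muscle marker reached it. The part of these markers in the Mt1 difference there was not tested.

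One of the RNA quality measures moved with genotype. The beta-actin control ratio, 3' end over 5' end on the log2 scale, was 0.35 ± 0.08 in tTA +Doxy, 0.32 ± 0.11 in tTA, 0.50 ± 0.08 in FVBN +Doxy and 0.54 ± 0.02 in FVBN control (SD). Its ranges did not overlap without Doxy and did overlap with it, at 0.25 to 0.46 in tTA +Doxy, against 0.38 to 0.56 in FVBN +Doxy. The same ratio for Gapdh was 0.08 ± 0.06 in tTA +Doxy, 0.04 ± 0.11 in tTA, 0.07 ± 0.06 in FVBN +Doxy and -0.0096 ± 0.13 in FVBN control, and the genotypes differed in it by less than the SD within groups. Fitted with the beta-actin ratio added to the model, Mt1 in tTA against FVBN control was at -0.31 ± 0.08 with a limma adjusted p of 0.0992, so the call was lost. Dusp1 in tTA +Doxy against FVBN +Doxy was at -0.27 ± 0.07 and kept its call.

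Within groups the 8 genes did not vary together beyond what the number of arrays can show. After the group means were taken off, none of the 28 pairs passed a permutation test over the 19 arrays with adjustment over the pairs, the lowest adjusted p being 0.583 for Pearson's r and 0.519 for Spearman's rho. Sgk1 and Pdk4 had the highest r, 0.51 (permutation p = 0.0443, rho = 0.442 with p = 0.0885, adjusted p = 0.583), and 0.32 without the 2 arrays farthest out. Mt1 and Mt2 had an r of 0.43 (permutation p = 0.0885, rho = 0.484 with p = 0.0541, adjusted p = 0.583), and 0.30 without the 2 farthest arrays.

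The genes whose within-group pattern was most like each member were found by Pearson's r over the same 19 arrays, taking the top 3 of 5657 other genes. They are a description, since the highest of so many values is high by choice, and arrays share their normalization. For Mt1 they were Rtf2 (0.795), Gpn2 (0.778) and Cct6a (0.735), and for Mt2 Srpx (0.753), Guca2b (0.738) and Actl7b (0.734). Mt1 and Mt2 were thus not among each other's nearest genes. For Dusp1 they were Hs1bp3 (0.825), Chtf8 (0.759) and Cux1 (0.755). For Fkbp5 they were Ndn (0.745), Clip1 (0.73) and Pafah1b2 (0.707), and for Tsc22d3 Cep250 (0.859), Htt (0.85) and Mknk1 (0.832). Sgk1 lay nearest to Gorasp2 (0.82), Stk38 (0.792) and Errfi1 (0.786), and Cebpd to Itpr2 (0.788), Ddit4 (0.753) and Dmpk (0.716). Pdk4 lay nearest to Cyb5b (0.869), Twf2 (0.831) and Pkn2 (0.817). Errfi1 and Ddit4 are themselves known glucocorticoid-induced genes, a remark made after the list was seen. The share of such genes among the 5657 was not counted.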

How the data were processed

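The deposited table holds 12488 probe sets on 20 arrays as linear intensity values, already summarised by the authors. Their summary, background correction and scaling are not stated in the labels or the file header. The median intensity was 60.7 to 62.5 per array, within-group correlations of arrays were 0.992 to 0.998, and no pair of arrays was identical. After 66 control probe sets were left out, 12422 remained, of which the platform table linked 10833 to 1 gene, 396 to several and 1193 to none.

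The 19 arrays with a group were quantile normalized, floored at 14.37, the 10th percentile, and log2 transformed. The brightest 60% by mean, 7453 probe sets, were tested with limma 3.58.1 in R 4.3.3: 4 group means, eBayes with trend and robust variance, and Benjamini-Hochberg adjustment over all tested probe sets within each comparison. The fit was tested on simulated data. Correlations within groups used 100000 permutations, two-sided. Figures were drawn with matplotlib 3.10.9. Precision is limited by the number of arrays.

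The 8 genes and all gene lists were chosen with earlier results of these data known. Named are the 8 genes, up to 3 called genes per list and comparison, 10 regulators where tested, and the 3 genes most like each of the 8. Of the regulators, Nr3c1, Slc30a1 and Fos were too dim, and Pdk2 lacked a probe set of its own. Alternatives were other normalizations, floors, filters, variance settings, weights, arrays and the beta-actin covariate. The 1 array whose title gives no group entered no comparison. Promoter windows are from RefSeq.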

Additional observations from a re-analysis of the deposited data

How the results depend on the processing

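For tTA against FVBN control, 1 of the 8 genes was called (Mt1). With the beta-actin covariate 0 were, and leaving out each array in turn gave 0 to 2: 0 without FVBN control array 8177 or 8182, and 2 without tTA array 7288, which added Dusp1. For tTA +Doxy against tTA the count was 0, and it was 1 (Mt1) with median scaling, the deposited values, the brightest 40% of probe sets, array weights (adjusted p = 0.00994) or only the arrays compared. Leaving out each array gave 0 to 1, the 1 being Mt1 without FVBN +Doxy array 8340 or 8341 or tTA array 7288, 7294 or 7310. The other 3 comparisons kept their counts under all alternatives run. Of the 28 pairs 0 passed, and 0 to 1 when each array was left out: without FVBN +Doxy array 8341, Mt2 and Tsc22d3 passed (r = 0.731, adjusted p = 0.0115, against r = 0.379 with all arrays).

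Mt1 in tTA against FVBN control was called in 27 of 30 alternatives (-0.49 to -0.31), and Mt1 in tTA +Doxy against tTA in 10 of 30 (adjusted p 0.00994 to 0.24). Differences near 0 changed sign, all uncalled. For FVBN +Doxy against FVBN control, Mt2 was -0.023 with median scaling and -0.012 with the deposited values. The Dusp1 interaction was 0.0089 with median scaling. With array weights, Cebpd in tTA +Doxy against tTA was -0.051 and the Sgk1 interaction -0.023. Without tTA arrays 9310 and 9322, Sgk1 in tTA against FVBN control was 0.036, its interaction -0.043, and Pdk4 in tTA +Doxy against tTA -0.024. With the beta-actin covariate, tTA against FVBN control gave -0.065 for Tsc22d3 and 0.024 for Sgk1, tTA +Doxy against FVBN +Doxy gave 0.021 for Sgk1 and 0.022 for Cebpd, and the Sgk1 interaction was -0.0030. The cause of these changes was not tested.

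Leaving out each array in turn, tTA against FVBN control ran over -0.023 to 0.13 for Tsc22d3 and -0.047 to 0.016 for Sgk1. FVBN +Doxy against FVBN control ran over -0.065 to 0.036 for Mt1, -0.087 to 0.13 for Mt2, -0.034 to 0.12 for Tsc22d3 and -0.0026 to 0.14 for Sgk1. For tTA +Doxy against FVBN +Doxy the ranges were -0.12 to 0.0095 for Mt2 and -0.081 to 0.059 for Sgk1. For tTA +Doxy against tTA they were -0.029 to 0.14 for Cebpd and -0.025 to 0.25 for Pdk4. The interaction ran over -0.0020 to 0.082 for Fkbp5 and -0.063 to 0.077 for Sgk1.

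Probe sets called in all were 439 for tTA +Doxy against FVBN +Doxy, 284 with all probe sets tested and 696 with weights, and 239 to 493 over arrays left out. For tTA against FVBN control they were 210, 52 with the beta-actin covariate and 54 to 241 over arrays left out. For FVBN +Doxy against FVBN control they were 3, and 1 to 8 under the alternatives. For tTA +Doxy against tTA they were 5, and 2 to 25. For the interaction they were 1, and 0 to 6. Of 2086 recounts of the gene lists 105 moved by over 1.5 times. The floors at the 5th and 20th percentile changed none of the results for the 8 genes. Fkbp5 was not tested among the brightest 40%, and a fit on only the arrays compared gives no interaction. No paired analysis was possible because the groups share no array numbers. With 2 FVBN control arrays, leaving out 1 leaves a lone array assumed to vary like the other groups.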

Other observations

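The title of 1 further array names cardiac tTA expression but gives neither a number nor Doxy status. On the log2 scale, normalized with the other 19, its levels were 10.05 for Mt1, 7.83 for Mt2, 6.14 for Fkbp5, 6.63 for Tsc22d3, 8.90 for Dusp1, 6.87 for Cebpd and 9.87 for Pdk4, each within the range of the 19 arrays. The ranges given here come from the 19 arrays normalized without this array, so the scales are not quite the same. Its Sgk1 level of 6.52 was below the lowest of the 19, 6.56. Its Mt1 and Dusp1 levels were above the highest of the 13 arrays with tTA, 9.94 and 8.73. They lay within the FVBN ranges of 9.80 to 10.11 for Mt1 and 8.73 to 9.05 for Dusp1. If this array carries tTA, as its title can be read, the separation of Dusp1 by genotype does not hold for it.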
